A study of Homo sapiens with 9 samples.

Results

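The genes described here are 10 regulators of the G1 phase of the cell cycle: the cyclins CCND1, CCND3, CCNE1 and CCNE2, the kinases CDK2, CDK4 and CDK6, the inhibitors CDKN1B and CDKN2C, and the kinase substrate RB1. They were taken by symbol, and all 10 were found among the 60675 gene rows of the count table. RNA was sequenced from MM.1S, an established human multiple myeloma cell line that grows in suspension. The cells had received epigallocatechin gallate (EGCG, a green tea catechin) at 0, 40 or 80 µM for 24 h, with 3 libraries at each dose. The libraries at 0 µM are the control, and no genotype or strain difference separates the groups. The submitters give the purpose as learning how EGCG promotes apoptosis of myeloma cells. All libraries come from 1 cell line, and the labels do not say that replicates were separate cultures, so p-values measure only the spread between these libraries.

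In G1, D-type cyclins activate CDK4 and CDK6, which begin to phosphorylate the retinoblastoma protein RB1 and loosen its hold on E2F transcription factors. E2F then switches on genes of DNA replication and the E-type cyclins, which activate CDK2 and complete the phosphorylation of RB1. Inhibitors of the INK4 family, such as the p18 protein of CDKN2C, block CDK4 and CDK6, and those of the CIP/KIP family, such as the p27 protein of CDKN1B, bind cyclin E-CDK2. Myelomas commonly overexpress a D-type cyclin, and tumours with high MAF express CCND2.

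RefSeq promoter windows (GRCh38.p14), running from 250 bases before to 50 bases after a start, were taken by symbol for 7 of the 10 genes, 12 windows in all. The only RB1 window lies inside the gene (chr13:48476200-48476499), away from the annotated start of RB1 at 48303726. No windows were taken for CCND1, CCNE2 and CDK2, and for CCNE2 this does not show that an entry was lacking. The windows of CCNE1 and CDK4 and a window of CDK6 are shown because CCNE1 and CDK4 were lower and CDK6 was higher at 80 µM. They are written 5′ to 3′ on the strand of the gene, and capitals mark GC boxes, GGGCGG or its reverse complement CCGCCC.
CCNE1, chr19:29811741-29812040, plus strand: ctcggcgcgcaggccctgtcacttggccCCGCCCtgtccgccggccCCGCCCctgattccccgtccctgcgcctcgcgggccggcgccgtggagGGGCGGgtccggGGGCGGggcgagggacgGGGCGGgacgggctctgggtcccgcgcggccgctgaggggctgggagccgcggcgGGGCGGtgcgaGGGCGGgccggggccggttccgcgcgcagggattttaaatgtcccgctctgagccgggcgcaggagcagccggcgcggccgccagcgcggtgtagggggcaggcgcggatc
CDK4, chr12:57752261-57752560, minus strand: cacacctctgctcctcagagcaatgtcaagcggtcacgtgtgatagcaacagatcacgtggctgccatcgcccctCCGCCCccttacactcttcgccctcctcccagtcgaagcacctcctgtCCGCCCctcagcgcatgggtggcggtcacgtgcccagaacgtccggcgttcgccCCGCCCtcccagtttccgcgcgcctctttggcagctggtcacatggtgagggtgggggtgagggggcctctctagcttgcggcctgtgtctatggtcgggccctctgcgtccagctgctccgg
CDK6, chr7:92836524-92836823, minus strand: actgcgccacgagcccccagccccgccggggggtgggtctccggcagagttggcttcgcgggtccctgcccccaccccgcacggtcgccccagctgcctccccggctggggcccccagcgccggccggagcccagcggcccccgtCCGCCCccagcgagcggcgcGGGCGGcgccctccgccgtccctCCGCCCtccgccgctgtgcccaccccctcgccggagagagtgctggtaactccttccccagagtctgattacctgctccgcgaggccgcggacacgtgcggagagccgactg
The CCNE1 window held 7 GC boxes and was 81.0% G and C. The CDK4 window held 3 GC boxes at 66.0% G and C, and the CDK6 window shown held 3 at 78.0%. The other CDK6 window (chr7:92833910-92834209) held 0 at 68.7%. The median was 58.7% G and C over all 35116 promoter windows. On both strands, no letters matching TTTCGCGC or TTTGGCGC, forms of the E2F motif, or the ATF4 response element (TGATGNAA) stood in any of the 12 windows. Other forms of the E2F motif were not searched for, so E2F sites of other letters may be present. The E2F forms searched for were found in 1.15% of all windows, and the ATF4 response element in 3.62%. The GC box, searched for after those motifs gave no match, stood in 8 of the 12 windows and in 45% of all windows, both strands counted. GC boxes were present in the windows of CCNE1 and CDK4, which were lower at 80 µM. For CDK6, which was higher, they were present in the window shown but not in the other. The windows of CDKN1B (1 GC box) and CCND3 (5, 4 and 0), which were not called, also held them. Those of CDKN2C held 0, 6 and 1, and the RB1 window inside the gene held 0.

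Library totals ran from 12674490 to 16427343 counts. Values are CPM (counts scaled to library size, with TMM-scaled library sizes), and a call means an adjusted p (Benjamini-Hochberg over 15982 genes) under 0.05 in edgeR's quasi-likelihood test. Log2 fold changes are given ± SE and group means ± SD over 3 libraries. Each fit was repeated in 18 alternative settings (other scalings, filters, tools and sample sets, with 9 fits that each leave out 1 library). Mitochondrial ribosomal RNA took 0.699 ± 0.0444% of counts in control cells, 1.43 ± 0.181% at 40 µM and 4.27 ± 0.349% at 80 µM, and the calls for the G1 genes were the same with mitochondrial genes left out. All 10 plasma cell and myeloma markers averaged at least 1 CPM, with sums of 6832 to 7051 CPM in control cells, 6258 to 6445 at 40 µM and 5970 to 6297 at 80 µM. Of 20 markers of other cells, CD3D, NKG7 and COL1A2 were among those at 0 in every library. The 5 that averaged at least 1 CPM over the 9 libraries were PECAM1 (8.48 CPM), HBB (4.39), CD3E (3.03), GNLY (1.56) and PDGFRB (1.39). PECAM1 and CD3E were called lower at 80 µM against the control, with log2 fold changes of -1.28 and -1.14. The 20 summed to 23.5 to 27.7 CPM in control cells, 20.4 to 22.9 at 40 µM and 15.5 to 16.4 at 80 µM, and their part in the results below was not tested. In RNA from a whole culture, less RNA per cell and fewer cells in the phase that makes it cannot be told apart.

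At 80 µM, 2 of the 9 tested G1 genes rose against the control and 3 fell, where 34.9% of all genes were called, 17.4% higher and 17.5% lower. CCNE1, CDK2 and CDK4 fell, and CDK6 and RB1 rose. CCND1, CCND3, CCNE2 and CDKN1B were not called, and CDKN2C had no count in any library. Library values did not overlap between the groups for 6 genes with lower and 2 with higher values, against 25.3% and 24.6% of all genes. An unadjusted p under 0.05 was found for 7 of the 9 and for 44.7% of all genes. The median log2 fold change of the 9 was -0.43, and that of all genes tested was near zero at -0.001.

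**Figure D1:**
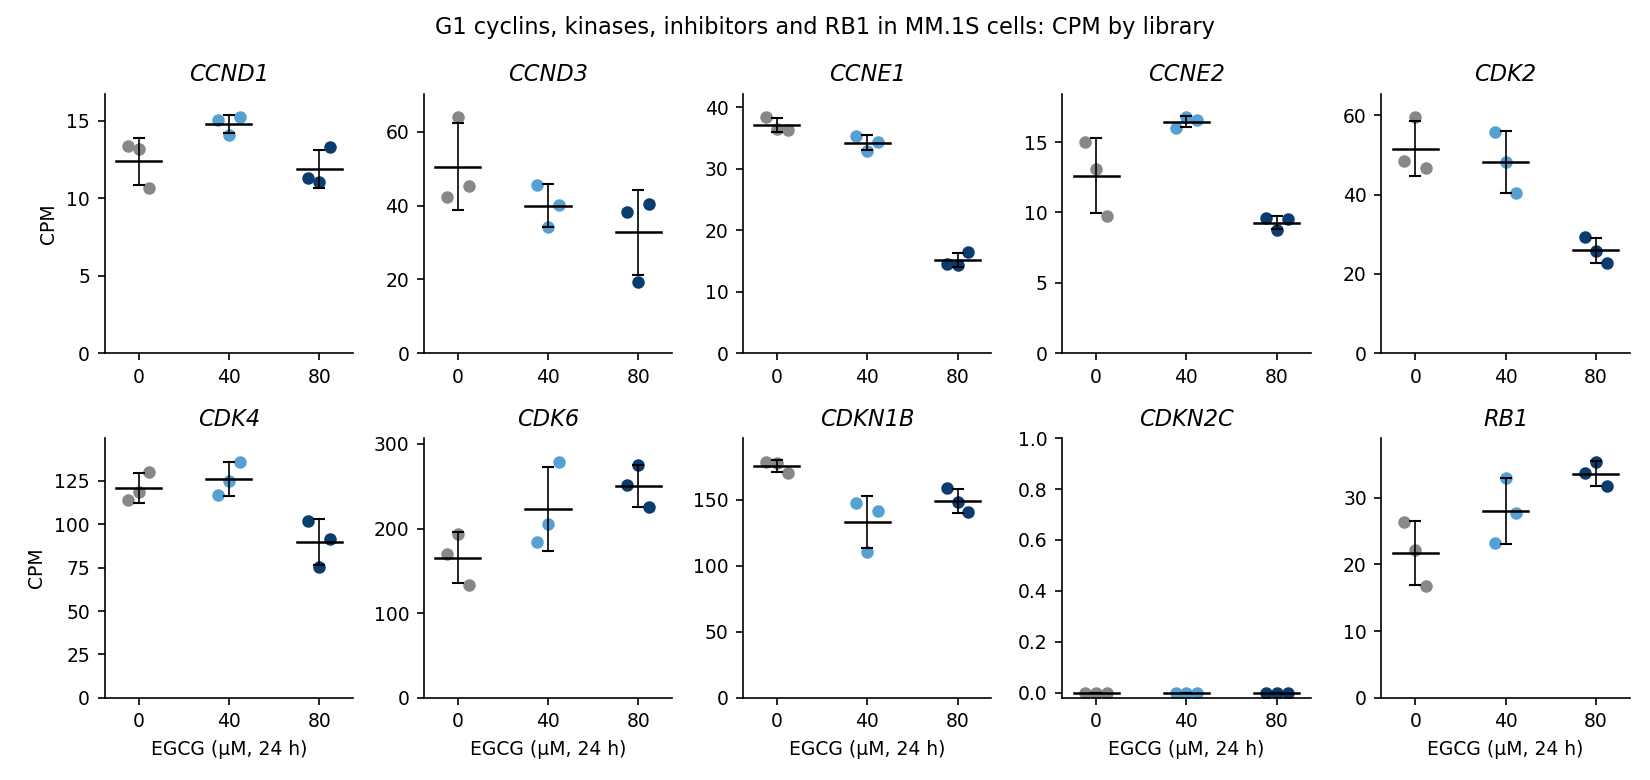
CPM of the 10 genes in each library against the EGCG dose in µM (points, 3 libraries a dose), with the mean (bar) and SD (whiskers). CCNE1 and CDK2 at 80 µM lie below every control library, CDK6 and RB1 lie above every control library, and CDKN2C is at 0 throughout.

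The D-type cyclins among the 10 genes carried few of the D cyclin transcripts. CCND1 (ENSG00000110092, chr11:69641087-69654474, plus strand) encodes cyclin D1. It had 13.4, 13.2 and 10.6 CPM in the control, 15.0, 14.1 and 15.2 CPM at 40 µM, and 11.3, 11.1 and 13.3 CPM at 80 µM. The 40 µM libraries lay above all others, while the 80 µM and control libraries overlapped. The log2 fold change was -0.06 ± 0.14 at 80 µM against the control (95% interval -0.38 to 0.26, adjusted p = 0.78) and -0.31 ± 0.14 at 80 µM against 40 µM (adjusted p = 0.139).

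CCND3 (ENSG00000112576, chr6:41934933-42050357, minus strand) encodes cyclin D3. It had 42.4, 64.0 and 45.3 CPM in the control, 45.7, 34.2 and 40.1 CPM at 40 µM, and 38.4, 19.4 and 40.4 CPM at 80 µM. Control replicate 2 was high and 80 µM replicate 2 low within their groups, and all 80 µM values lay below the control values. The log2 fold change at 80 µM against the control was -0.63 ± 0.26 (95% interval -1.21 to -0.05), which was not called at an adjusted p of 0.0857. Its SE was the largest of the 9 tested genes, and its SD was 11.6 CPM at 80 µM and 11.7 CPM in the control.

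CCND2, the other D-type cyclin and not among the 10 genes, supplied most of the family's transcripts. Per kilobase of exon, CCND2 made up 88.8 ± 1.82% of D cyclin counts in control cells, 90.4 ± 0.766% at 40 µM and 90.2 ± 2.55% at 80 µM. CCND3 made up 8.65 ± 1.78% in control cells, 6.63 ± 0.763% at 40 µM and 6.83 ± 2.39% at 80 µM. CCND1 made up 2.55 ± 0.259% in control cells, 2.95 ± 0.0310% at 40 µM and 2.98 ± 0.203% at 80 µM. The shares of CCND2 and of CCND3 overlapped between the 3 doses. The CCND1 share of every treated library lay above every control library, and the treated doses overlapped. Its highest control share was 2.75%, and its lowest shares were 2.93% at 40 µM and 2.79% at 80 µM. The shares were not tested. CCND2 had 646.9, 641.8 and 626.5 CPM in the control, 679.2, 650.1 and 683.4 CPM at 40 µM, and 502.4, 548.3 and 548.7 CPM at 80 µM. It fell by 0.26 ± 0.08 on the log2 scale at 80 µM against the control (adjusted p = 0.0351), a call held in 10 of 18 alternative settings and ended by leaving out any of 6 libraries (control replicates 1 and 2, 40 µM replicate 3 or any 80 µM replicate) or by no filter on low counts.

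Of the 9 tested genes, CCNE1 had the largest change at 80 µM against the control. CCNE1 (ENSG00000105173, chr19:29811898-29824308, plus strand) encodes cyclin E1, a partner of CDK2. It had 38.4, 36.5 and 36.4 CPM in the control, 35.4, 33.0 and 34.3 CPM at 40 µM, and 14.6, 14.3 and 16.5 CPM at 80 µM. The 80 µM values lay far below all 6 other libraries, which sat within a few CPM of each other. CCNE1 fell by 1.29 ± 0.11 on the log2 scale at 80 µM against the control, a 2.45-fold lower level (95% interval -1.54 to -1.05, adjusted p = 2.35e-05). It also fell at 80 µM against 40 µM, by 1.18 ± 0.11 (adjusted p = 0.000201). At 40 µM against the control its log2 fold change was -0.11 ± 0.11 (95% interval -0.35 to 0.12, adjusted p = 0.573). Both calls held in 18 of 18 alternative settings.

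CCNE2 (ENSG00000175305, chr8:94879770-94896678, minus strand), which encodes cyclin E2, had a different order of doses. It had 15.0, 13.1 and 9.72 CPM in the control, 16.0, 16.8 and 16.6 CPM at 40 µM, and 9.59, 8.73 and 9.51 CPM at 80 µM. The 40 µM libraries were the highest, and control replicate 3 lay near the 80 µM values. CCNE2 fell at 80 µM against 40 µM by 0.83 ± 0.16 on the log2 scale (adjusted p = 0.0058), a call held in 18 of 18 settings. Against the control it was not called at 80 µM (log2 fold change -0.44 ± 0.16, adjusted p = 0.0587). That value rests on control replicate 3: without it the log2 fold change was -0.62 and the adjusted p 0.0082, in a range of 0.0082 to 0.24 over the 18 settings.

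The balance between the E cyclins is given by their shares. Per kilobase of exon, CCNE1 made up 83.6 ± 2.62% of E cyclin counts in control cells, 78.2 ± 0.998% at 40 µM and 73.7 ± 1.27% at 80 µM. The 3 groups did not overlap, with a highest 80 µM share of 74.9% and a lowest control share of 81.5%. The shares are given as a description, with no test.

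Among the kinases, CDK2 and CDK4 fell and CDK6 rose. CDK2 (ENSG00000123374, chr12:55966769-55972784, plus strand) is the kinase partner of the E and A cyclins. It had 48.5, 59.5 and 46.7 CPM in the control, 55.9, 48.3 and 40.4 CPM at 40 µM, and 29.2, 25.8 and 22.8 CPM at 80 µM. Every 80 µM value lay below every other library, while 40 µM and control overlapped. CDK2 fell by 0.99 ± 0.16 on the log2 scale at 80 µM against the control (adjusted p = 0.000918) and by 0.89 ± 0.16 at 80 µM against 40 µM (adjusted p = 0.00333). Both calls held in 18 of 18 settings. At 40 µM against the control the log2 fold change was -0.10 ± 0.16 (adjusted p = 0.758).

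CDK4 (ENSG00000135446, chr12:57747727-57756013, minus strand) is one of the kinases activated by D cyclins. It had 114, 119 and 130.4 CPM in the control, 117, 125 and 136 CPM at 40 µM, and 102, 75.7 and 91.7 CPM at 80 µM. The 80 µM values lay below all others, and the other groups overlapped. CDK4 fell by 0.43 ± 0.12 on the log2 scale at 80 µM against the control (adjusted p = 0.021) and by 0.49 ± 0.12 at 80 µM against 40 µM (adjusted p = 0.018). The call against the control was lost on leaving out control replicate 3 (adjusted p = 0.0539), 80 µM replicate 2 (0.0998) or 80 µM replicate 3 (0.0583), in a range of 0.0112 to 0.0998 over the settings. The call against 40 µM ended without 40 µM replicate 3 (0.0659), 80 µM replicate 2 (0.0827) or 80 µM replicate 3 (0.0555), in a range of 0.00437 to 0.0827.

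CDK6 (ENSG00000105810, chr7:92604921-92836594, minus strand), the other kinase of D cyclins, moved the opposite way. It had 170, 193 and 134 CPM in the control, 185, 205 and 279 CPM at 40 µM, and 252, 275 and 225 CPM at 80 µM. All 80 µM values lay above the control values, and 40 µM replicate 3 was the highest library of all. CDK6 rose by 0.60 ± 0.17 on the log2 scale at 80 µM against the control, a 1.51-fold higher level (adjusted p = 0.0226). Leaving out 1 library ended the call for control replicate 1 (adjusted p = 0.0505), control replicate 3 (0.0869), 80 µM replicate 1 (0.0574) or 80 µM replicate 2 (0.0726), in a range of 0.00802 to 0.0869 over the settings. At 40 µM against the control the log2 fold change was 0.43 ± 0.17, with an unadjusted p of 0.0329 and an adjusted p of 0.208.

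With opposite directions, the ratio of CDK6 to CDK4 per kilobase of exon differed between the doses. It averaged 0.357 ± 0.0817 in control cells, 0.454 ± 0.0663 at 40 µM and 0.737 ± 0.174 at 80 µM. The lowest 80 µM ratio, 0.634, lay above the highest control ratio, 0.421, and the highest 40 µM ratio, 0.530. Which of the pair was the more abundant depends on the gene length used. Per kilobase of exon the largest ratio was 0.938, in 80 µM replicate 2, so CDK4 was higher in every library. In the deposited FPKM, which uses other lengths, CDK6 was higher in all 3 libraries at 80 µM (18.7, 21.0 and 16.9 FPKM for CDK6 against 13.9, 10.7 and 12.7 FPKM for CDK4) and in 40 µM replicate 3.

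**Figure D2:**
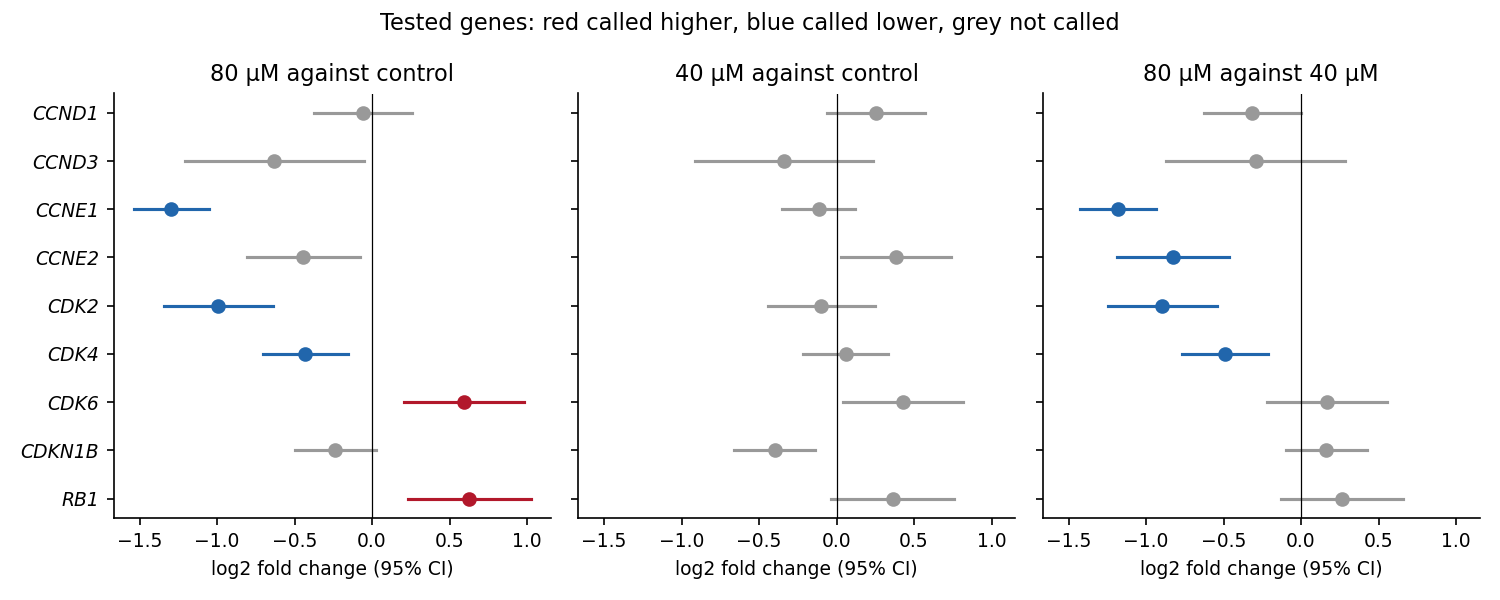
Log2 fold changes of the 9 tested genes (x axis) with 95% confidence intervals, in 1 panel for each pair of doses. CCNE1 is the farthest from 0 in both panels that hold 80 µM, at -1.29 against the control and -1.18 against 40 µM, and no gene is called in the middle panel.

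The inhibitors showed a different picture from their partners. CDKN1B (ENSG00000111276, chr12:12715058-12722371, plus strand) encodes p27, which binds cyclin E-CDK2. It had 179, 178 and 170 CPM in the control, 147, 111 and 141 CPM at 40 µM, and 159, 148 and 140.4 CPM at 80 µM. Both treated groups lay below the control libraries and overlapped each other. The log2 fold change was -0.24 ± 0.12 at 80 µM against the control (95% interval -0.50 to 0.02, adjusted p = 0.145). At 40 µM against the control it was -0.40 ± 0.12, with an unadjusted p of 0.00633 and an adjusted p of 0.108, so neither difference was called.

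Because CCNE1 and CDK2 were lower at 80 µM and CDKN1B was not called, the transcript ratios of p27 to its targets were higher there. CDKN1B to CCNE1, per kilobase of exon, averaged 4.30 ± 0.108 in control cells, 3.52 ± 0.413 at 40 µM and 8.996 ± 1.11 at 80 µM. CDKN1B to CDK2 averaged 4.76 ± 0.545 in control cells, 3.89 ± 0.863 at 40 µM and 8.01 ± 0.516 at 80 µM. In both ratios, every 80 µM library lay above every library of the other doses. These ratios are of transcripts, and protein was not measured.

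**Figure D3:**
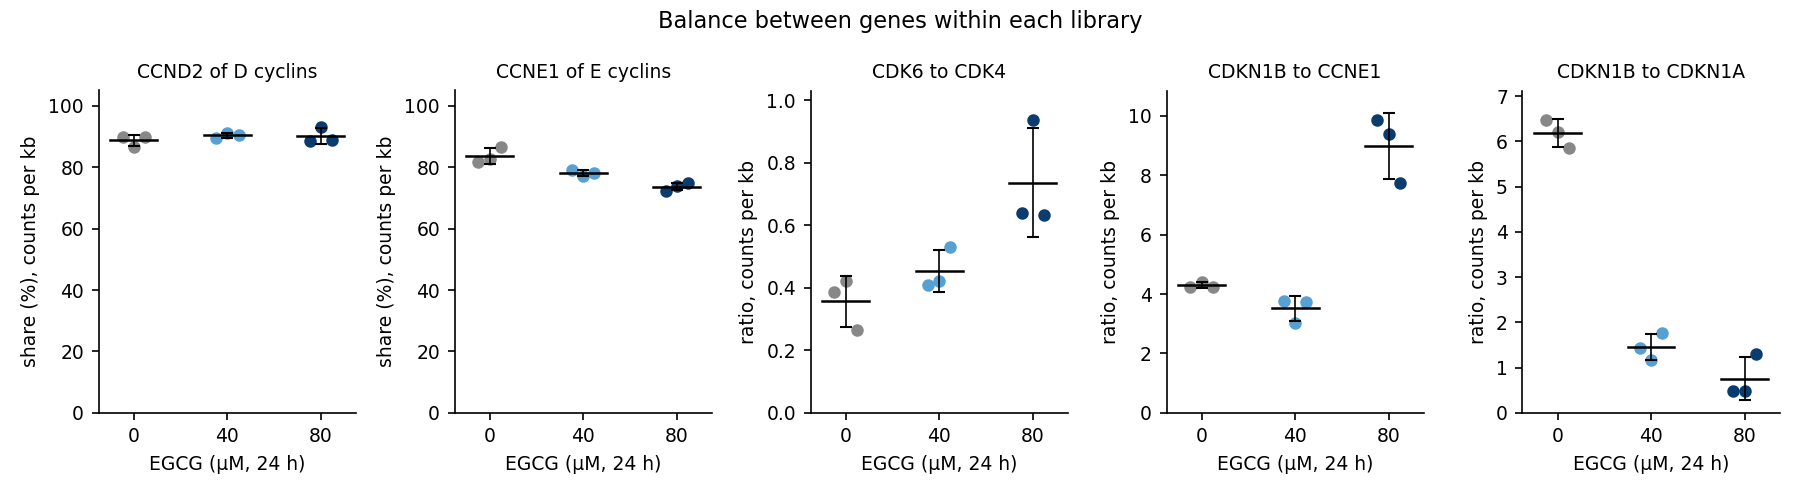
Shares (%) and ratios between genes within each library, from counts per kilobase of exon, against the EGCG dose in µM (points, 3 libraries a dose, with mean bar and SD whiskers). The CCND2 share stays near 90% at all doses, while at 80 µM the CDK6 to CDK4 and CDKN1B to CCNE1 ratios lie above, and the CCNE1 share lies below, every library of the other doses.

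CDKN2C (ENSG00000123080, chr1:50960745-50974633, plus strand), which encodes the INK4 inhibitor p18, had 0 counts in all 9 libraries. Over the 127505461 counts of the 9 libraries together, a count of 0 allows a level of up to 0.0235 CPM (3 counts, counting error only), and within 1 library up to 0.183 to 0.237 CPM. It was therefore not tested. Its neighbours, named after their values were seen, differed widely in counts. FAF1, whose start lies 0.482 kb from that of CDKN2C on the opposite strand, had 249 counts in all and 9 to 45 counts per library. C1orf185, the next protein-coding gene on the other side, had 0 counts, as did AGBL4 and ELAVL4, which start 936.8 and 912.7 kb away, and DMRTA2, 537.2 kb away, had 2. RNF11, which starts 275.5 kb away, had 11058 counts, TTC39A, 384.4 kb away, had 104, and EPS15, 558.6 kb away, had 14253. Whether the CDKN2C locus is intact in these cells was not tested.

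**Figure D4:**
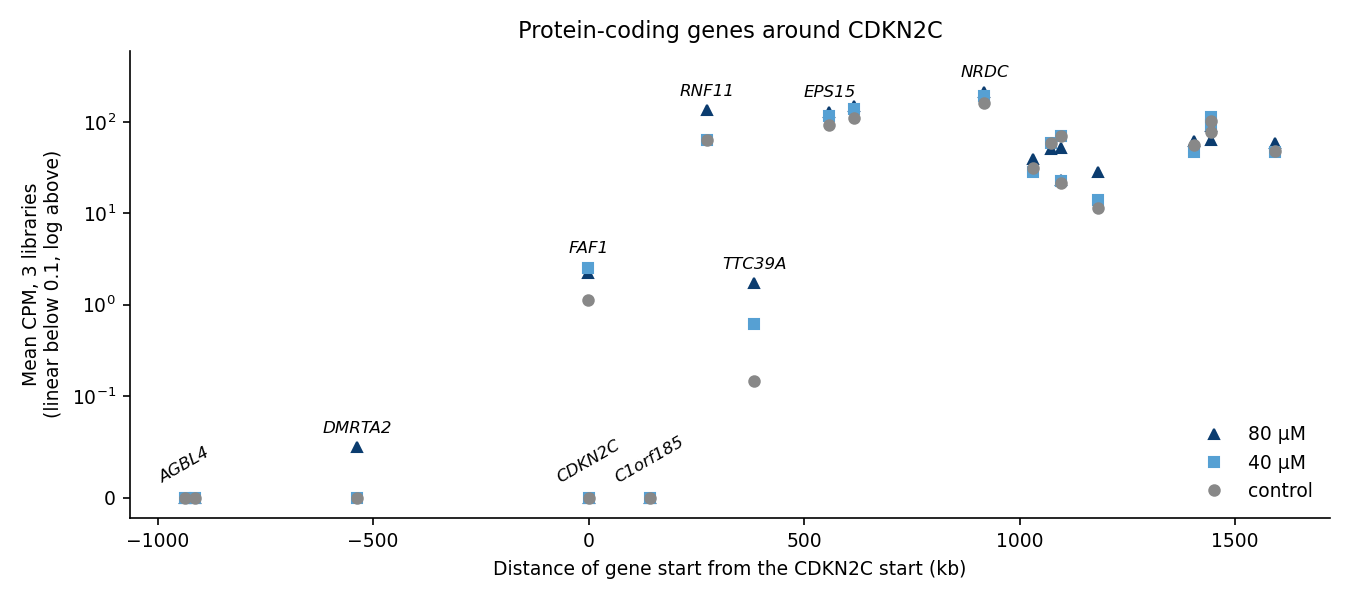
Mean CPM of 3 libraries per dose for protein-coding genes around CDKN2C, against the distance of each gene start from the CDKN2C start in kb (y axis linear below 0.1 and logarithmic above). CDKN2C and C1orf185 sit at 0, FAF1 sits at 1.12 CPM in control cells, 2.54 at 40 µM and 2.23 at 80 µM, and the labelled genes EPS15 and NRDC sit near or above 100 CPM.

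RB1 (ENSG00000139687, chr13:48303726-48599436, plus strand) encodes the pocket protein that these kinases phosphorylate. It had 26.3, 22.2 and 16.8 CPM in the control, 23.2, 33.0 and 27.7 CPM at 40 µM, and 33.8, 35.4 and 31.7 CPM at 80 µM. The 80 µM values lay above all control values, and 40 µM overlapped both. RB1 rose by 0.63 ± 0.18 on the log2 scale at 80 µM against the control, a 1.55-fold higher level (adjusted p = 0.0201). This call was lost on leaving out control replicate 3 (adjusted p = 0.0633), 80 µM replicate 1 (0.052) or 80 µM replicate 2 (0.0599), in a range of 0.00859 to 0.0633 over the settings. Without control replicate 3, 80 µM replicate 1 or 80 µM replicate 2, neither RB1 nor CDK6 was called.

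At 40 µM against the control, none of the 9 tested genes was called by edgeR's quasi-likelihood test, where 2.30% of all genes were, 1.49% higher and 0.813% lower. DESeq2 and limma-voom also called none, and 3 genes (CCNE2, CDK6 and CDKN1B) had an unadjusted p under 0.05, a level reached by 19.9% of all genes. Library values did not overlap for 2 genes with higher values (CCND1 and CCNE2) and 2 with lower values (CCNE1 and CDKN1B), against 12.9% and 11.5% of all genes. At 80 µM against 40 µM, 4 of the 9 fell and 0 rose, where 23.0% of all genes were called, 12.1% lower and 10.9% higher. Those 4 were CCNE1, CCNE2, CDK2 and CDK4. With CCND1 they were the 5 genes with an unadjusted p under 0.05, a level reached by 35.8% of all genes. The same 5 had 80 µM values below all 40 µM values, as did 21.5% of all genes, while 0 had them above, as did 20.1% of all genes. The 80 µM libraries enter both of their comparisons, so these are not independent observations. CDK6 and RB1 were not called between the doses, with log2 fold changes of 0.17 ± 0.17 (95% interval -0.22 to 0.55, adjusted p = 0.522) and 0.27 ± 0.18 (95% interval -0.13 to 0.66, adjusted p = 0.313).

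Levels were compared between genes as CPM per kilobase of exon. In the control, CDKN1B was the highest at 62.5 ± 1.67, followed by CDK4 at 38.2 ± 2.67. CCNE1 at 14.5 ± 0.451, CDK6 at 13.5 ± 2.44 and CDK2 at 13.2 ± 1.78 overlapped on this scale. CCND3 followed at 8.71 ± 2.02, and RB1 at 3.37 ± 0.742, CCNE2 at 2.87 ± 0.606 and CCND1 at 2.57 ± 0.314 overlapped. At 40 µM CDKN1B at 47.4 ± 7.03 and CDK4 at 39.8 ± 3.02 led and overlapped, with CDK6 next at 18.2 ± 4.04. At 80 µM CDKN1B, CDK4 and CDK6 led with 53.0 ± 3.24, 28.3 ± 4.17 and 20.4 ± 2.03, with no overlap between neighbours. CDK2, CCNE1, CCND3 and RB1 followed at 6.66 ± 0.831, 5.93 ± 0.454, 5.64 ± 1.99 and 5.21 ± 0.287, and each overlapped its neighbour in the order. These orders hold for exon lengths only. In the deposited FPKM, CDK6 lay above CDK4 at 80 µM (18.9 ± 2.04 against 12.4 ± 1.64 FPKM), and in the control CDK6 (12.4 ± 2.72 FPKM) lay above CCNE1 (6.82 ± 0.474 FPKM) with no overlap.

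The other genes of the pathway were followed in 6 lists. Of 9 tested G1 cyclins and CDK activators outside the 10 genes, 0 rose and 3 fell at 80 µM against the control, where 17.4% of all genes rose and 17.5% fell (median log2 fold change -0.25). CDC25A, the phosphatase that activates CDK2, fell by 1.25 ± 0.15 (adjusted p = 0.000203), CCNA2, the S-phase partner of CDK2, fell by 0.54 ± 0.10 (adjusted p = 0.00241), and CCND2 is described above. Of 6 other CDK inhibitors, 4 rose and 1 fell, against 17.4% and 17.5% of all genes (median 0.65). CDKN2B (p15, an INK4 inhibitor) rose by 1.72 ± 0.36 at a low level of 4.46 ± 0.929 CPM at 80 µM and 1.35 ± 0.433 CPM in the control. CDKN1C (p57) rose by 0.79 ± 0.19, and CDKN3, a phosphatase of CDK2, fell by 0.56 ± 0.17, a call lost on leaving out either control replicate 2 (adjusted p = 0.0929) or 80 µM replicate 2.

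CDKN1A, which encodes the CIP/KIP inhibitor p21, had the largest change among these inhibitors. It had 29.96, 31.1 and 31.5 CPM in the control, 112, 102 and 86.9 CPM at 40 µM, and 354, 327 and 117 CPM at 80 µM. The control libraries were tight, and 80 µM replicate 3 lay near the 40 µM libraries and far below its own group. CDKN1A rose by 3.11 ± 0.34 on the log2 scale at 80 µM against the control (adjusted p = 0.000107), and by 3.48 without 80 µM replicate 3. It rose by 1.70 at 40 µM against the control (adjusted p = 0.027), a call that held in 12 of 18 settings and ended when any 1 of the 6 libraries compared was left out. The ratio of CDKN1B to CDKN1A, per kilobase of exon, averaged 6.18 ± 0.311 in control cells, 1.45 ± 0.297 at 40 µM and 0.759 ± 0.468 at 80 µM. The more abundant CIP/KIP transcript was thus CDKN1B in every control and 40 µM library and CDKN1A in 80 µM replicates 1 and 2, while 80 µM replicate 3 had a ratio of 1.299.

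**Figure D5:**
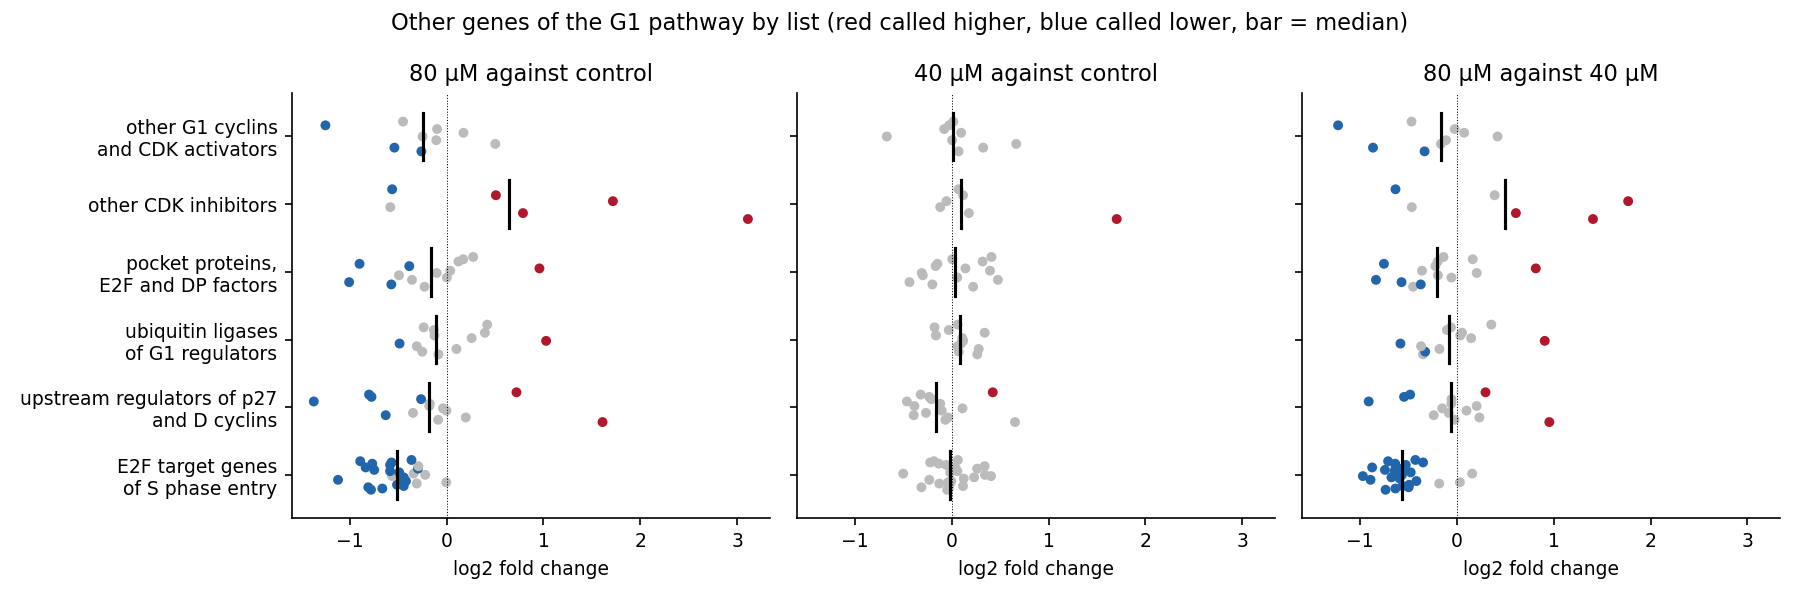
Log2 fold change of each tested gene (points, x axis) in the 6 pathway lists, in 1 panel for each pair of doses, with the list median as a bar, called higher in red and called lower in blue. E2F targets sit mostly left of 0 in both panels that hold 80 µM, with medians of -0.51 and -0.56, and CDKN1A is the rightmost point of the first panel at 3.11.

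Downstream of RB1, of 14 pocket proteins, E2F and DP factors 1 rose and 4 fell at 80 µM against the control (median log2 fold change -0.16). Of all genes 17.4% rose and 17.5% fell. E2F1, an activating E2F, fell by 1.00 ± 0.12 (adjusted p = 0.000199), TFDP1, the partner of E2F proteins on DNA, fell by 0.90 ± 0.11 (adjusted p = 0.000165), and RBL2, which encodes the pocket protein p130, fell by 0.57 ± 0.11. E2F7, a repressing E2F, rose by 0.96 ± 0.13 (adjusted p = 0.00037), and 2 of the 14 rose without control replicate 2. Of 25 E2F targets of S-phase entry, 19 fell and 0 rose at 80 µM against the control, or 13 fell without 80 µM replicate 2. Of all genes 17.5% fell. The 25 targets had a median log2 fold change of -0.51, where all genes had -0.001. Among them GINS2, a subunit of the replicative helicase, fell by 1.12 ± 0.11, FEN1, a flap endonuclease, by 0.89 ± 0.10, POLA2, a subunit of DNA polymerase alpha, by 0.75 ± 0.09 and MCM3, a helicase subunit, by 0.66 ± 0.10. Against 40 µM 22 of the 25 fell at 80 µM, where 12.1% of all genes fell, but 14 without 80 µM replicate 2, and at 40 µM against the control 0 of 25 were called, or 1 without 40 µM replicate 1.

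Upstream, of 12 ubiquitin ligase components that act on G1 regulators 1 rose and 1 fell at 80 µM against the control, where 34.9% of all genes were called. FBXW7, which marks cyclin E for destruction, had 30.6, 32.0 and 30.1 CPM in the control, 33.2, 32.1 and 35.4 CPM at 40 µM, and 63.2, 67.1 and 58.5 CPM at 80 µM. It rose by 1.03 ± 0.11 on the log2 scale at 80 µM against the control (adjusted p = 6.96e-05), and the 80 µM values lay far above all others. RBX1, a cullin-ring subunit, fell by 0.48 ± 0.14, a call lost on leaving out control replicate 1, 80 µM replicate 1 or 80 µM replicate 2 (adjusted p = 0.075 without 80 µM replicate 1). Leaving out 1 library gave 3 rises without control replicate 3, 2 rises without 80 µM replicate 3 and 2 falls without control replicate 2. SKP2, which marks p27 for destruction and was named after its values were seen, had a log2 fold change of -0.08 ± 0.13 (adjusted p = 0.64).

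Of 14 upstream regulators of p27 and the D cyclins, 2 rose and 5 fell at 80 µM against the control, where 17.4% of all genes rose and 17.5% fell (median log2 fold change -0.18), and 3 fell without 80 µM replicate 2. FOXO1, a transcription factor that can induce CDKN1B, rose by 1.61 ± 0.15 (adjusted p = 3.79e-05), and IRF4, a survival factor of myeloma cells, rose by 0.72 ± 0.09 (adjusted p = 0.00018). PIM1, a kinase that can phosphorylate p27, fell by 1.37 ± 0.14 (adjusted p = 5.7e-05), and MAF, which can induce CCND2, fell by 0.80 ± 0.11 (adjusted p = 0.00037). At 40 µM against the control, CDKN1A and IRF4 were the only genes called over the 6 lists. The IRF4 log2 fold change there was 0.42 (adjusted p = 0.0331), a call held in 8 of 18 settings and ended without 8 of the 9 libraries in turn, all but 40 µM replicate 1, and in the fit of the 6 compared libraries alone.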

How the data were processed

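Per the file headers, the authors deposited 1 table that gives each gene a read count and an FPKM for every library. The deposited counts are whole numbers without normalization, and they alone were tested. The deposited FPKM values rest on the authors' own gene lengths and were not tested. They served to check the counts and to show where the order of genes depends on the lengths used. GRCh38, HISAT2, SAMtools 1.3.1, CASAVA 1.8 and edgeR were used, per the submitters' processing notes. No counting program, annotation, strand setting or RNA selection is given in the sources used here.

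Genes were filtered with filterByExpr by group (15982 of 60675 kept), scaled by TMM and tested in edgeR 4.0.16 (R 4.3.3) by quasi-likelihood. All 9 libraries entered 1 fit with dose as a single factor and 6 residual degrees of freedom. P-values were adjusted by Benjamini-Hochberg over all genes tested. Standard errors were derived from the F statistic and the log2 fold change. Scripts were tested on simulated data. Exon lengths and coordinates are from GENCODE 29 on GRCh38. Alternatives used other scalings and filters, DESeq2 1.42.0, limma 3.58.1 (voom), a replicate block and the removal of each library. No replicate pair was a copy of another, the closest having a chi-square per degree of freedom of 12.3 where counting error alone gives about 1.

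The 10 genes, the lists and the rules were chosen with earlier results of these data known. Named were the 10 genes, from each list up to 4 called genes of smallest p at 80 µM against control, and the 5 genes most like the one of smallest p. Marker lists served only as a check of the cell line.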

Additional observations from a re-analysis of the deposited data

How the results depend on the processing

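Of the 9 tested genes in 3 comparisons, each under 18 alternative settings, 468 of the values kept their direction and their side of the threshold. In 13 a call was lost and in 1 it was gained, all by leaving out 1 library. In 4 the sign turned, each at a value that was never called: leaving out 1 library in turn, CCND1 at 80 µM against the control ran from -0.1769 to 0.0088 (above 0 without control replicate 1, and at 0.0038 when 80 µM replicate 2 was left out), and CDK2 at 40 µM against the control ran from -0.2168 to 0.0208 (above 0 without 40 µM replicate 3, and at 0.0199 when control replicate 2 was left out). The cause was not tested. Leaving out 1 library in turn gave 0 to 2 G1 genes higher and 2 to 3 lower at 80 µM against the control, and 3 to 4 lower at 80 µM against 40 µM. Over all genes it gave 4170 to 5775 calls at 80 µM against the control, 136 to 469 at 40 µM against the control and 2101 to 4059 at 80 µM against 40 µM. Against the 368 genes called at 40 µM, no filter on low counts gave 228, DESeq2 857 and the 6 compared libraries alone 153. Deviations of same-numbered replicates correlated at -0.139 to 0.051 across groups. Pairing by number was thus not seen, but this check cannot tell whether replicates shared a culture or batch. With a replicate block, 183 genes were called at 40 µM against the control, 5069 at 80 µM against the control and 3078 at 80 µM against 40 µM, and the counts of G1 genes called were as without it. The block also left CCND2 at 80 µM against the control and IRF4 at 40 µM against the control uncalled.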

Other observations

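The 5 genes whose log2 CPM followed CCNE1 most closely over the 9 libraries were TSR1, EBNA1BP2, DKC1, MIS18A and PDCD11, with Pearson r of 0.995, 0.993, 0.991, 0.990 and 0.989. TSR1, EBNA1BP2, DKC1 and PDCD11 are factors of ribosome biogenesis, and MIS18A acts in centromere assembly. TSR1 averaged 176 CPM in control cells, 171 CPM at 40 µM and 103 CPM at 80 µM. In all 273 genes had an r of at least 0.95, and the libraries share the dose groups, so r is a description.

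Several of the G1 genes share exonic or intronic ground with genes on the opposite strand, whose reads cannot be told apart where counting did not use strand. MARCHF9, which overlaps CDK4 over 916 bases, had log2 fold changes of -0.72 at 80 µM against the control (adjusted p = 0.00268) and -0.68 at 40 µM against the control (adjusted p = 0.033). TSPAN31, which overlaps CDK4 over 2485 bases, had 0.27 at 80 µM against the control (adjusted p = 0.105). PMEL, which overlaps the whole of CDK2, had 184 counts in all against 5358 for CDK2. LPAR6 and RCBTB2, which overlap RB1, had 29 and 484 counts against 3543 for RB1. INTS8 and NDUFAF6, which overlap CCNE2 over 1977 and 912 bases, had 4112 and 1620 counts against 1635 for CCNE2, and LTO1, which overlaps CCND1 over 1399 bases, had 2533 against 1662 for CCND1. None of these 3 was called in any comparison. These genes were named after their values were seen, and their part in the results for CDK4, CDK2, RB1, CCNE2 and CCND1 was not tested.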
